A study of Schizosaccharomyces pombe with 36 samples.

Results

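This report concerns the first step of a 4-thiouracil labelling course in wild-type (WT) fission yeast, Schizosaccharomyces pombe: RNA labelled up to time point 5 against RNA labelled up to time point 20. All 6 libraries of these time points from WT were taken, out of 36 libraries in the series, and each culture's later library was set against its own earlier one. The 3 WT cultures (strain yAS99) were each started from a single colony, received 5 mM 4-thiouracil, and gave up cells at each time point, in an unstated unit. RNA holding the analogue was pulled down through biotin and sequenced with a stranded mRNA kit. For 1 comparison the matching 6 libraries of strain yMAB001 were used, in which slr1, the gene of the LARP1 homologue, is knocked out; it was grown, labelled and sampled in the same way. All strains were streaked on rich medium at 32 °C, and each group has 3 libraries, 1 per culture.

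Cells that take up 4-thiouracil build it into RNA in place of uracil, so that a pull-down soon after the addition holds mostly RNA made since then. As labelling goes on, stable transcripts accumulate in the labelled pool while short-lived ones turn over within it. The share of a transcript in the pool therefore reflects its synthesis early on, and its decay as well later. mRNAs of ribosomal proteins are known as stable transcripts, and those of many regulators as short-lived ones. Heat shock proteins are chaperones that fold, hold or disaggregate other proteins, and their genes are switched on by the factor Hsf1 when proteins misfold.

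The 6 WT libraries held 1400848 to 5313881 counts on S. pombe genes, and slr1 was read in each. On a joint scaling of the 12 libraries its level, in CPM (its count scaled by the library's total), was 137 to 285 in WT and 3.66 to 19.2 in the knockout, so the labels hold. Between the time points S. pombe counts per human count rose in each culture, by a factor of 2.20 in culture 1, 2.29 in culture 2 and 3.13 in culture 3. Against the fly counts, which the libraries also hold, the factors were 1.03, 1.59 and 1.66, and fly counts per human count rose by 2.13, 1.44 and 1.88. What the human and fly RNA is for is not stated, and the human-count scaling used below gives a larger shift than fly counts would. Culture 3 stood apart from the other two in that ratio, in the smallest library of the comparison (its time point 20) and in the spread of its changes, with a standard deviation of the log2 change over genes of 0.62, against 0.46 in both other cultures. Values below are shares of the S. pombe counts, as CPM after TMM scaling. With scaling to the human counts in its place, the median log2 change over tested genes was 1.03 and not −0.05, a shift of 1.08, and 5456 genes rose and 0 fell. Every fall given below is thus a fall relative to the whole of labelled S. pombe RNA. Each named gene that fell stood above 0 in the human-count scaling, as an estimate over the 3 cultures together. In single cultures some of these genes fell per human count too, as given below. A share of labelled RNA does not tell the amount per cell. As libraries were paired by culture, the p-values weigh a gene's step against a spread between the 3 cultures that edgeR moderates towards all genes. A gene's own libraries give 2 residual degrees of freedom, and the information from all genes counts as 10.31. An SE or adjusted p can thus be small where the 3 cultures of a gene disagree, as in hsp16 (steps of 3.29, 3.71 and 7.02).

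Relative to that whole, 50.4% of tested genes moved within this step. Of 5604 tested genes, 1351 (24.1%) were higher and 1474 (26.3%) lower at time point 20 by edgeR's quasi-likelihood test with the culture as a block, at a Benjamini-Hochberg adjusted p under 0.05. The rises were larger than the falls: 202 called genes rose more than 2-fold and 3 fell more than 2-fold, and the median log2 change was 0.59 among genes that rose and −0.42 among those that fell. Without culture 2 there were 1042 higher and 927 lower. Of the called genes, 98.2% moved the same way in all 3 cultures. Without the block no gene passed (0 called, 819 at an unadjusted p under 0.05), and DESeq2 with the block called 1058 higher and 976 lower. Per the labels, portions were taken from the same culture over time.

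Among called genes with a symbol, at least 10 CPM and the same direction in each culture, hsp16 and ssa1 of the heat shock response rose most. hsp16, encoding a small heat shock protein, went from 25.9, 121 and 45.6 CPM in cultures 1, 2 and 3 at time point 5 to 254, 1578 and 5911 CPM at time point 20. Each library of time point 20 lay above all of time point 5, and the cultures spread far more at 20 than at 5. The log2 change was 4.61 (SE 0.53, adjusted p = 3.09e-05), a 24.4-fold rise, and 3.53 with culture 3 left out. ssa1, which encodes a chaperone of the Hsp70 family, rose from 98.7, 700 and 675 CPM to 343, 2600 and 4868 CPM (log2 change 2.19, SE 0.17, adjusted p = 5.67e-06). The groups overlapped, as culture 1 ran below the other two at both time points, while each culture rose by itself. hsp104, a disaggregase gene chosen after its values were seen, went from 156, 366 and 478 CPM to 222, 781 and 2155 CPM, rising least in culture 1 and most in culture 3 (1.27, SE 0.22, adjusted p = 5.86e-04; 0.81 without culture 3).

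**Figure D1:**
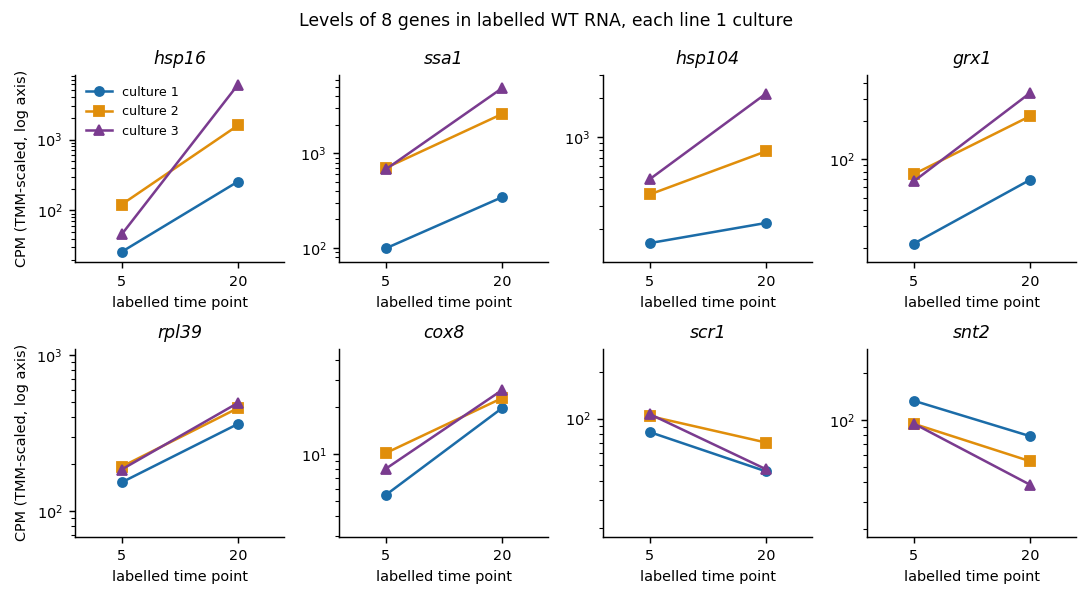
Levels in CPM (TMM-scaled, log axis) of 8 genes at labelled time points 5 and 20 in WT, each line being 1 culture with n = 3. hsp16, ssa1, hsp104, grx1, rpl39 and cox8 rose in all 3 cultures, and scr1 and snt2 fell in all 3 relative to all S. pombe RNA, while both stood above 0 (0.25 and 0.17) in the human-count scaling.

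The helpers of Hsp70 and Hsp90 moved with them. fes1, the nucleotide exchange factor of Hsp70, rose by 1.68 on the log2 scale (SE 0.19), sti1, which links Hsp70 to Hsp90, by 1.45 (SE 0.14), wos2, the p23 partner of Hsp90, by 1.55 (SE 0.16) and wis2, a cyclophilin gene, by 1.66 (SE 0.10), with edgeR adjusted p between 3.60e-06 and 3.09e-05. wis2 stood at 169, 667 and 1444 CPM at time point 5 and at 513, 2022 and 4938 CPM at 20, so that each culture rose by a like factor from a very different start. slt1 rose by 1.46 (SE 0.23), from 125, 273 and 405 CPM to 203, 639 and 2134 CPM. Chosen after their values were seen, hsp90 (1.03, SE 0.11) and ssa2, another Hsp70 gene (1.09, SE 0.10), rose as well.

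Of 33 tested genes of heat shock proteins and chaperones, 29 rose (87.9%, beside 24.1% of all genes) and 2 fell. Their median was 0.67, beside −0.05 over all tested genes. The medians within cultures 1, 2 and 3 were 0.53, 0.77 and 0.92. The list held 1.60, 2.58 and 3.94% of S. pombe counts at time point 5 in cultures 1, 2 and 3, and 2.36, 4.12 and 7.54% at time point 20. The cultures thus differed at the start in the same order in which they differed later. The members that fell were hsp3102, a glyoxalase III gene (−0.95, SE 0.21), and hsf1 (−0.40, SE 0.08). hsf1 is the gene of the heat shock transcription factor itself and was chosen after its values were seen. hsp3102 went from 58.5, 4.89 and 2.68 CPM to 29.8, 2.28 and 2.41 CPM. It was thus low in cultures 2 and 3, and its step in culture 3 was −0.16. hsf1 went from 425, 319 and 294 CPM to 339, 233 and 218 CPM relative to all S. pombe RNA, lower in each culture, and in the human-count scaling hsf1 stood at 0.69 and hsp3102 at 0.11.

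The heat shock element is the binding site of Hsf1, and it is shown in the 3 genes with a symbol and the largest rise that hold it. The element was chosen after the data were seen and searched as GAA, 2 free bases, TTC, 2 free bases and GAA, on both strands, in the 250 bases before each transcript start in RefSeq's annotation of assembly ASM294v3. It was in 21 of 5108 promoters (0.411%), in 2 of 33 of the heat shock list (6.06%, ssa1 and ssa2) and in 2 of the 11 protein coding genes among the 12 largest rises (ssa1 and wis2). Shown are 60 bases each, 5′ to 3′ on the gene's strand, with the element in capitals, from chrI:2297987-2298046 (minus strand, ssa1), chrI:4931203-4931262 (minus strand, wis2) and chrIII:2056960-2057019 (plus strand, ssa2). The element began 58, 75 and 59 bases before the transcript start.
ssa1: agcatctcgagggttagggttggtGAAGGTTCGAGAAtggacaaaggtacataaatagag
wis2: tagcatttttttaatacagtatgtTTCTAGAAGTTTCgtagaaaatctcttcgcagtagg
ssa2: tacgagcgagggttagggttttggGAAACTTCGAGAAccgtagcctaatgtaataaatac
Of the 20 tested genes with the element, 7 rose and 3 fell, where 24.1% of all genes rose and 26.3% fell. Those that rose were ssa1, wis2, ssa2, SPBPB2B2.05, the calnexin gene cnx1 (0.97), the alcohol dehydrogenase gene adh1 (0.64) and the splicing factor gene sap49 (0.55). Those that fell, relative to all S. pombe RNA, were the ubiquitin ligase gene doa10 (−0.22), vhc1 (−0.43) and rgs1 (−0.44). A match describes these letters in this window only, and the build behind the counts is not stated.

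In later libraries several heat shock genes fell back. On a joint scaling of the 18 WT libraries, ssa1 reached 319, 2266 and 4365 CPM at time point 20 and stood at 159, 331 and 258 CPM at time point 50. hsp104 went from 206, 681 and 1933 CPM at 20 to 124, 112 and 136 CPM at 50, and slt1 from 189, 557 and 1914 to 113, 95.4 and 162 CPM. Each culture's level at 50 lay below its own at 20 for these genes, and for hsp16, which stood at 180, 578 and 1328 CPM at 50. At steady state hsp16 stood at 218, 253 and 260 CPM, so cultures 2 and 3 were still above that at 50. Of the 29 members that rose, 12 (41.4%) were lower again at 50 in all 3 cultures, beside 240 of all 1351 genes that rose (17.8%). Both steps use the libraries of time point 20, so these counts are a description.

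**Figure D2:**
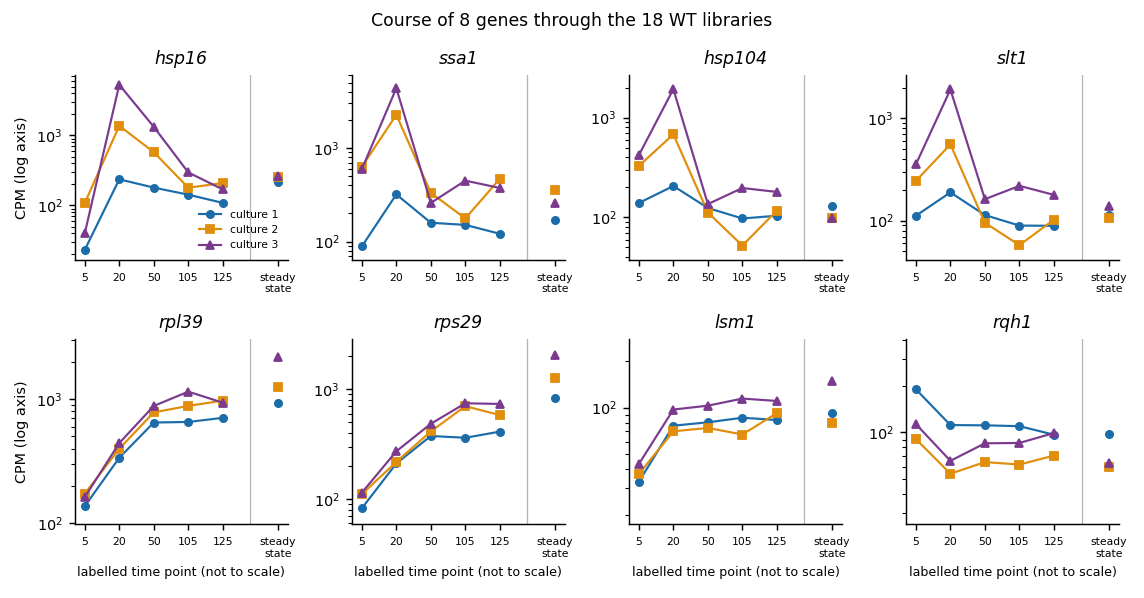
CPM (joint TMM scaling of the 18 WT libraries, log axis) of 8 genes at labelled time points 5, 20, 50, 105 and 125 (not to scale) and at steady state, points being single cultures (n = 3). hsp16, ssa1, hsp104 and slt1 are highest at 20 in each culture, rpl39 and rps29 are higher at 50 than at 20 in each, and rqh1 drops after 5 relative to all S. pombe RNA (0.30 in the human-count scaling).

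Other genes rose steeply as well. grx1, encoding glutaredoxin, went from 21.6, 76.3 and 67.0 CPM to 68.8, 218 and 332 CPM (log2 change 1.83, SE 0.13, adjusted p = 4.53e-06). trx1, for cytosolic thioredoxin, rose by 1.58 (SE 0.13) and tpx1, for the peroxiredoxin that thioredoxin reduces, by 1.37 (SE 0.10). tsp0, a TspO-like gene, went from 16.6, 21.4 and 5.36 CPM to 64.4, 62.8 and 25.7 CPM without overlap (1.84, SE 0.17). Of 32 tested genes of the core environmental stress response, which the Sty1 kinase pathway drives, 16 rose (50%, beside 24.1% of all genes). In this list 5 fell (15.6%, beside 26.3% of all genes), 2 without culture 2, and the median was 0.36. The list's median was 0.17 in culture 2 against 0.40 and 0.50 in cultures 1 and 3. Unlike ssa1, grx1 and tsp0 stood higher at time point 50 than at 20 in each culture, at 132, 283 and 387 CPM and at 89.7, 139 and 59.3 CPM.

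mRNAs of cytosolic ribosomal proteins rose almost as one block. Of 140 tested, 137 rose (97.9%, beside 24.1% of all genes) and 1 fell. The median was 0.96, with medians of 0.90, 0.92 and 1.02 within cultures 1, 2 and 3. In 101 of the 140, no library of time point 20 overlapped those of time point 5, beside 12.2% of all tested genes that were higher without overlap. Together they took up 5.71, 7.24 and 6.03% of S. pombe counts in cultures 1, 2 and 3 at time point 5, and 10.0, 11.3 and 9.79% at 20. The largest changes were in rpl39, from 153, 192 and 185 CPM to 362, 457 and 494 CPM (1.30, SE 0.08, adjusted p = 4.42e-06), in rps29 (1.18, SE 0.09) and in rpl3802 (1.18, SE 0.08). Cultures differed little here: the steps of rpl3802 were 1.18, 1.17 and 1.19.

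A few members of the ribosomal protein list did not rise. Chosen after their values were seen, rps1401 fell from 122, 96.2 and 86.2 CPM to 76.3, 86.8 and 51.4 CPM (−0.50, SE 0.12, adjusted p = 0.00426), while it stood at 0.57 in the human-count scaling. rps2202 (−0.13, adjusted p = 0.415) and rpl1603 (−0.09, adjusted p = 0.370) were not called; rps2202 was at 0.34, −0.35 and −0.43 in cultures 1, 2 and 3, and was called lower with culture 1 left out (−0.39). Each has near-identical paralogs, as have members that rose. Reads that align in several places were counted apart from the genes, so values of single paralogs are uncertain. Whether this touched the genes that did not rise was not tested. The rise of the family went on after this step: the list stood 0.97 above time point 5 at 20, 1.52 at 50, 1.72 at 125 and 2.28 at steady state, as medians on the joint scaling. Of the 137 members that rose, 123 were higher at 50 than at 20 in all 3 cultures (89.8%, beside 35.2% of all genes that rose).

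HomolD and HomolE are the known promoter boxes of S. pombe ribosomal protein genes, and HomolD is shown in the 3 members with the largest rise that hold it. HomolD was searched as CAGTCACA and HomolE by its known core, on both strands of the same 250-base windows. HomolD was in 63.6% of the 140 ribosomal protein promoters and in 2.62% of all 5108, and HomolE in 29.3% and 1.21%. The windows are 60 bases at chrIII:1640945-1641004 (plus strand, rpl39), chrII:2081398-2081457 (plus strand, rpl1001) and chrI:1162681-1162740 (minus strand, rps2201), printed on the gene's strand with HomolD in capitals. rpl39 holds the box in a pair, and in rpl1001 and rps2201 it reads on the opposite strand.
rpl39: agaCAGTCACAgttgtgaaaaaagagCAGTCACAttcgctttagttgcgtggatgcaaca
rpl1001: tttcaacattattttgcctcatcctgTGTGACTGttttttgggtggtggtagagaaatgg
rps2201: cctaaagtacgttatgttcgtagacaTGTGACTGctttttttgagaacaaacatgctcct
The box nearest the start began 45, 57 and 56 bases before it, beside a median of 51 bases over the ribosomal protein genes. rpl1001 and rps2201, named for this sequence, both rose by 1.16. rps2202, which was not called, holds HomolD and HomolE too, and rps1401 holds HomolE, so the boxes were not limited to members that rose.

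Most translation factors rose, with smaller medians than the ribosomal proteins. Of 14 elongation and TOP-like factors 12 rose (85.7%, beside 24.1% of all genes) and 0 fell, with a median of 0.58. HomolD was in 6 of the 14 promoters (42.9%). tef5, a subunit of the exchange factor of elongation factor 1, went from 498, 870 and 487 CPM to 875, 1891 and 1141 CPM (1.05, SE 0.10, adjusted p = 9.51e-06), without overlap. tif512, for eIF5A, rose by 0.93 (SE 0.09) and btf3, for the beta subunit of the nascent polypeptide-associated complex, by 0.83 (SE 0.09). Of 26 initiation factors 22 rose (84.6%) and 0 fell, with a median of 0.57. sui1, for eIF1, went from 467, 498 and 533 CPM to 777, 989 and 1061 CPM (0.90, SE 0.09), tif1, for eIF4A, rose by 0.83 (SE 0.11), and tif211, for eIF2 alpha, by 0.72 (SE 0.08).

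Nuclear genes of the respiratory chain and the ATP synthase rose nearly as evenly as ribosomal protein genes. Of 34 tested, 32 rose (94.1%) and 0 fell, with a median of 0.76 (0.74, 0.75 and 0.66 within cultures 1, 2 and 3). cox8, a subunit of cytochrome c oxidase, went from 5.46, 10.1 and 8.04 CPM to 19.7, 22.8 and 25.7 CPM (1.56, SE 0.22, adjusted p = 1.32e-04), with no overlap at these low levels. cox12, of the same complex, rose by 1.10 (SE 0.15) and atp18, of the ATP synthase, by 1.26 (SE 0.16). Mitochondrial ribosomal proteins, which are also made from nuclear genes, moved little: 13 of 51 rose (25.5%, beside 24.1% of all genes) and 4 fell, with a median of 0.12, and the 13 became 4 without culture 2 and 8 without culture 3. mrpl38 (0.63, SE 0.14) and mrpl19 (0.48, SE 0.10) were among those that rose. None of the 8 genes of the mitochondrial genome had enough counts to be tested.

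**Figure D3:**
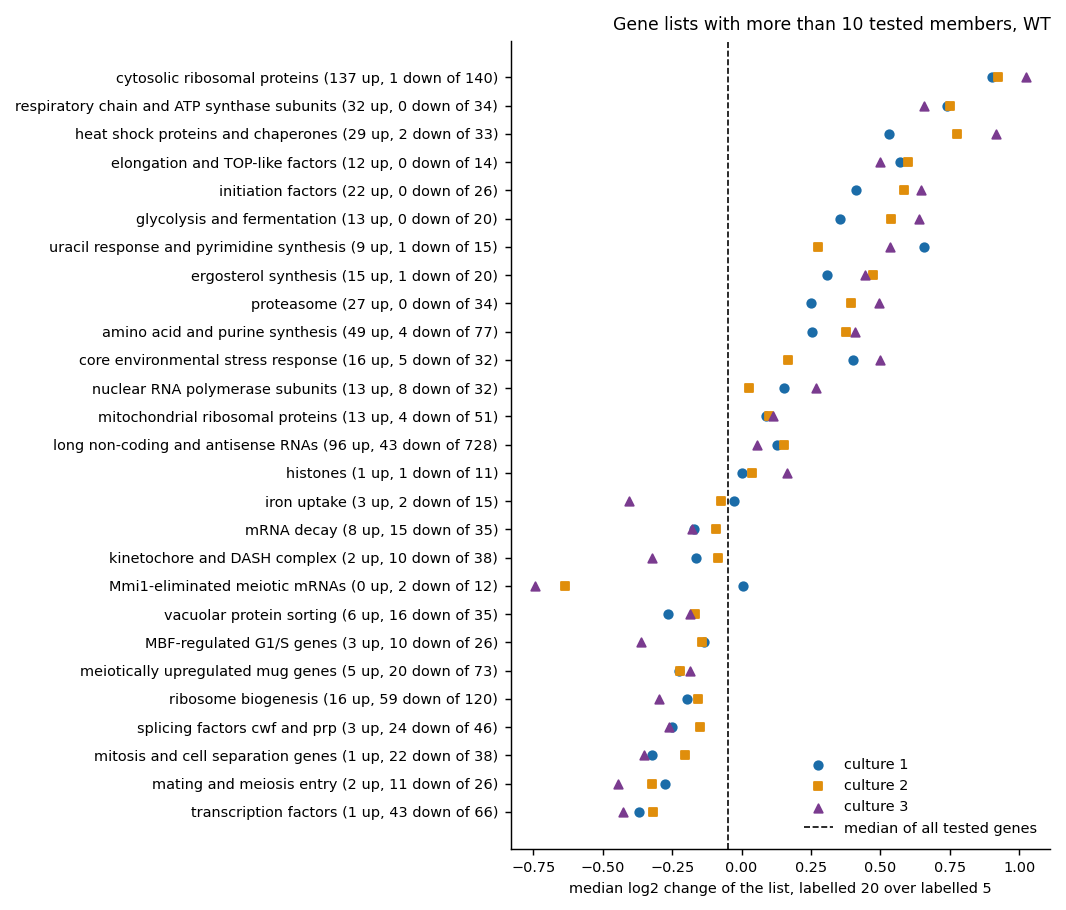
Median log2 change (labelled 20 over labelled 5, TMM-scaled) within each WT culture for each list with more than 10 tested members; labels give how many members rose and fell by edgeR's test, and the dashed line is the median of all tested genes (−0.05). Ribosomal proteins lie highest in each culture, and in the human-count scaling every list's median is above 0, at 0.69 for transcription factors.

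Enzymes of housekeeping metabolism rose as well, by smaller steps. Of 77 genes of amino acid and purine synthesis, 49 rose (63.6%) and 4 fell (5.19%), with a median of 0.37. Of all genes, 24.1% rose and 26.3% fell. The list was led by ilv6, the regulatory subunit of acetolactate synthase (1.10, SE 0.12), leu1, of leucine synthesis (0.96, SE 0.09), and hom2, of the aspartate pathway (0.88, SE 0.09). ilv6 went from 332, 561 and 329 CPM to 594, 1107 and 927 CPM, with no overlap. Of 20 glycolysis and fermentation genes 13 rose (65%) and 0 fell (median 0.45). Among those that rose were pgi1 (0.91, SE 0.12), tpi1 (0.91, SE 0.11) and pgk1 (0.87, SE 0.11). Of 20 genes of ergosterol synthesis 15 rose (75%) and 1 fell (median 0.43). In this list erg28 (0.80), erg5 (0.80) and hcs1, for the HMG-CoA synthase (0.77), each rose with SE 0.09 or less.

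Proteasome subunits rose in 27 of 34 cases (79.4%, beside 24.1% of all genes), with 0 falling and a median of 0.39. scl1, for an alpha subunit of the core particle, went from 236, 243 and 292 CPM to 347, 373 and 481 CPM (0.63, SE 0.08), without overlap. pup3 (0.62, SE 0.09) and pre6 (0.61, SE 0.09), both of the core particle, rose too. Of the 27, 15 were lower again at time point 50 in all 3 cultures (55.6%, beside 17.8% of all genes that rose).

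The uracil-inducible genes urg1 and urg2 stood far apart between the cultures. urg1 stood at 1143, 127 and 6.51 CPM in cultures 1, 2 and 3 at time point 5 and at 2696, 209 and 17.7 CPM at 20. urg2 stood at 1127, 161 and 10.7 CPM and then at 2640, 257 and 53.8 CPM. Both rose in each culture (1.04, SE 0.13, and 1.16, SE 0.18) while the groups overlapped widely. On the joint scaling urg1 was at 1122, 191 and 4.34 CPM at steady state, so the cultures kept the same order there. fur4, the uracil permease gene, chosen after its values were seen, fell from 202, 247 and 304 CPM to 158, 209 and 214 CPM relative to all S. pombe RNA (−0.36, SE 0.08; 0.73 in the human-count scaling). In the whole list of 15 genes of the uracil response and pyrimidine synthesis 9 rose (60%, beside 24.1% of all genes) and 1 fell. Among those that rose was dut1, for the dUTPase (0.88, SE 0.12).

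No called gene with a symbol, at least 10 CPM and the same direction in each culture fell by more than 2-fold. The lowest was pho84, a phosphate transporter gene, which went from 406, 2607 and 1244 CPM to 277, 1514 and 406 CPM (−0.97, SE 0.16, adjusted p = 3.88e-04; steps of −0.55, −0.78 and −1.62 in cultures 1, 2 and 3). snt2, for a PHD finger protein of the Lid2 complex, went from 133, 94.7 and 95.0 CPM to 78.9, 54.5 and 38.5 CPM (−0.88, SE 0.11, adjusted p = 7.08e-05). Its groups did not overlap, as in 9.28% of all tested genes. Also without overlap fell snf5, of the SWI/SNF chromatin remodeller (−0.86, SE 0.14), and eme1, a subunit of a Holliday junction resolvase (−0.86, SE 0.17). These falls are relative to all S. pombe RNA; in the human-count scaling the 4 genes stood at 0.12, 0.17, 0.20 and 0.20.

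Other large falls had overlapping groups. Among them were guf1, a GTPase gene (−0.90, SE 0.21), pof15, for an F-box protein (−0.87, SE 0.10), prm1, of cell fusion in mating (−0.80, SE 0.18), and rqh1, for the RecQ helicase (−0.79, SE 0.09). rqh1 went from 213, 101 and 129 CPM to 120, 61.9 and 73.0 CPM, with steps of −0.83, −0.71 and −0.82. guf1 rested more on culture 3, where its step was −2.33, against −0.57 and −0.79. In the human-count scaling these 4 stood between 0.12 and 0.30.

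Many transcription factor genes fell. Of 66 tested, 43 fell (65.2%, beside 26.3% of all genes) and 1 rose. The median was −0.39, with −0.37, −0.32 and −0.43 within cultures 1, 2 and 3, and 0.69 in the human-count scaling. Their median annotated mRNA length was 2667 bases, within the longest length class given below, where 59.1% fell. Their share of S. pombe counts went from 1.64, 1.38 and 1.25% to 1.21, 0.968 and 0.801%. scr1, the repressor of glucose-repressed genes, went from 81.9, 104 and 107 CPM to 45.9, 70.2 and 47.3 CPM without overlap (−0.81, SE 0.12, adjusted p = 1.65e-04). cbf12, of the CSL family (−0.83, SE 0.10), and res2, of the MBF complex that drives G1/S genes (−0.81, SE 0.14), fell in each culture. The 1 that rose was zip1, chosen after its values were seen (0.27, SE 0.09, adjusted p = 0.0243), and its call was lost with any single culture left out (adjusted p = 0.0504 to 0.0906).

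Genes of the cell cycle and of mating fell in part. Of 38 genes of mitosis and cell separation 22 fell (57.9%, beside 26.3% of all genes) and 1 rose, with 13 falling without culture 1. Their median was −0.30 (0.79 in the human-count scaling). Their median annotated mRNA length was 2849 bases, and in the longest length class given below 59.1% fell. wee1, the kinase that delays mitosis, went from 122, 151 and 105 CPM to 80.3, 101 and 74.6 CPM without overlap (−0.57, SE 0.09), and pic1, for the INCENP subunit of the Aurora complex (−0.73, SE 0.10), and klp6, a kinesin gene (−0.59, SE 0.10), fell too. Of 26 genes of mating and entry into meiosis 11 fell (42.3%) and 2 rose, and 6 and 0 without culture 2. The median of these genes was −0.37 (0.70 in the human-count scaling). Their median annotated mRNA length was 2171 bases, within the third length class of the split given below, where 34.8% fell. ste11, the master regulator of mating, stood at 381, 256 and 70.5 CPM and then at 228, 179 and 40.9 CPM (−0.66, SE 0.09), and map4, for an agglutinin, fell by 0.64 on the log2 scale (SE 0.15). Of 38 kinetochore genes 10 fell and 2 rose (4 fell without culture 3 and 6 without culture 2), no larger a share falling than the 26.3% of all genes, spc7 falling (−0.69, SE 0.12) and mhf1 rising (0.80, SE 0.17).

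Genes that build ribosomes and spliceosomes did not follow the ribosomal proteins. Of 120 ribosome biogenesis genes 59 fell (49.2%, beside 26.3% of all genes) and 16 rose. Their median was −0.24 (0.85 in the human-count scaling). nog2, for a GTPase of ribosome export, went from 739, 295 and 562 CPM to 498, 206 and 266 CPM (−0.71, SE 0.11). Among those that rose were snu13 (0.90, SE 0.08) and nop10 (0.77, SE 0.08), both small proteins of snoRNA particles. Of 46 splicing factors 24 fell (52.2%) and 3 rose, with a median of −0.28 (0.81 in the human-count scaling). Median annotated mRNA lengths were 1832.5 bases for the ribosome biogenesis genes and 2069.5 bases for the splicing factors. Both lie in the third length class of the split given below, where 34.8% fell. prp40, of the U1 particle (−0.51, SE 0.08), the helicase gene cdc28 (−0.50, SE 0.11) and cwf28 (−0.52, SE 0.11) fell.

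Some lists held members that rose and members that fell. Of 32 nuclear RNA polymerase subunits 13 rose and 8 fell (4 fell without culture 2 and 4 without culture 3), that is 40.6% and 25.0% beside 24.1% and 26.3% of all genes. rpb10 (0.82, SE 0.08), rpa43 (0.74, SE 0.08) and rpb8 (0.72, SE 0.08) rose, while the largest subunits of polymerases III and I, rpc1 (−0.71, SE 0.09) and nuc1 (−0.43, SE 0.09), chosen after their values were seen, fell relative to all S. pombe RNA and stood at 0.38 and 0.66 in the human-count scaling. The median annotated mRNA length was 826 bases for the subunits that rose and 3717 bases for those that fell.

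Among 35 genes of mRNA decay 8 rose (22.9%, near the 24.1% of all genes) and 15 fell (42.9%), and the 8 were lsm1 to lsm7, which build the Lsm rings, and nhm1, for the scavenger decapping enzyme. lsm1 went from 36.8, 41.3 and 49.0 CPM to 82.0, 80.5 and 108 CPM without overlap (1.09, SE 0.11), and lsm3 (1.01, SE 0.14) and lsm7 (0.84, SE 0.10) rose as well. dcp2, the catalytic subunit of decapping, chosen after its values were seen, fell from 254, 151 and 172 CPM to 173, 118 and 112 CPM (−0.50, SE 0.09), and stood at 0.58 in the human-count scaling. Median lengths were 676 bases for those that rose and 3486 bases for those that fell. Of 35 vacuolar protein sorting genes 6 rose (17.1%) and 16 fell (45.7%, beside 26.3% of all genes), with median lengths of 1036 and 2815.5 bases. At the ends stood vps55 (1.05, SE 0.12) and vps1301 (−0.72, SE 0.14, and 0.35 in the human-count scaling).

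The same relation to length held over all mRNAs. With 4848 tested protein coding genes split into 4 equal length classes, in the shortest class (201 to 1147 bases) 49.9% rose and 6.19% fell, and in the longest class (2521 to 15002 bases) 5.20% rose and 59.1% fell. Median changes over the 4 classes were 0.32, 0.05, −0.16 and −0.32, and 0.24, 0.04, −0.17 and −0.33 with the ribosomal proteins left out. Spearman's rho between annotated length and change was −0.52 over all and −0.49 without ribosomal proteins. The number of uridines in the mRNA, which follows its length, gave a rho of −0.52 over all and −0.48 without ribosomal proteins, and the percentage of uridine a rho of −0.05 over all. These are relations across genes of the same 6 libraries, and genes are not independent replicates.

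Within each length class, genes with introns stood above genes without. Among genes of the shortest class, drawn anew without the ribosomal proteins, the median was 0.35 for 700 genes with 2 or more exons and 0.08 for 477 genes with 1 exon. In the second class it was 0.11 and −0.06, in the third −0.11 and −0.25, and in the longest −0.29 and −0.34. The order of both kinds held in each culture and in each class. Lengths and exons were taken from RefSeq's annotation of ASM294v3.

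**Figure D4:**
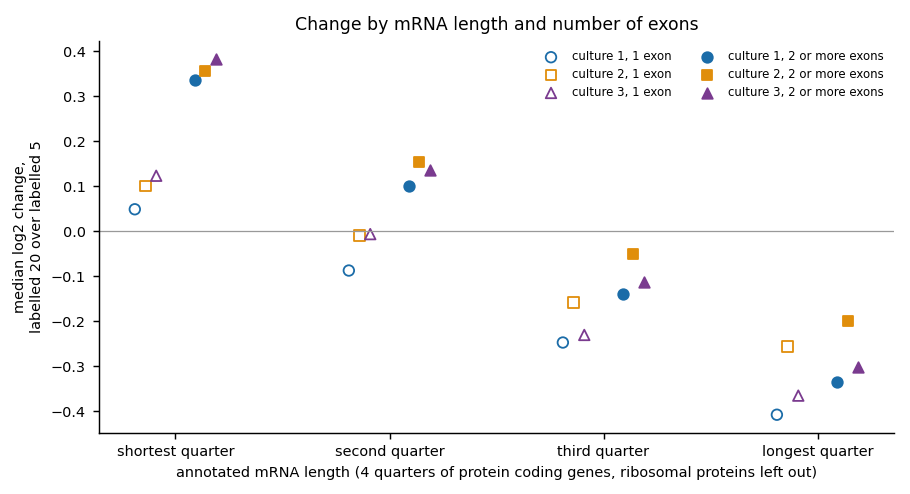
Median log2 change (labelled 20 over labelled 5, TMM-scaled) of protein coding genes by class of annotated mRNA length (4 equal classes), without ribosomal proteins; open symbols are genes with 1 exon, filled ones genes with 2 or more, and each symbol is 1 WT culture. Medians run from 0.35 for short genes with introns to −0.34 for long genes without, over the 3 cultures, and the human-count scaling shifts all genes up by a median of 1.08.

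Lists of regulated uptake, and the MBF-regulated genes, moved little or downwards. Of 10 phosphate regulon genes 6 fell (60%, beside 26.3% of all genes) and 2 rose, with a median of −0.49 (0.59 in the human-count scaling). Among those that fell were pho84 and gde1, for a glycerophosphodiesterase (−0.58, SE 0.10). The median was −0.74 in culture 3 against −0.29 and −0.24 in cultures 1 and 2. Of 6 tested hexose transporters 5 fell (3 with any single culture left out), and ght5, the high-affinity glucose transporter gene, went from 192, 578 and 274 CPM to 126, 404 and 203 CPM (−0.52, SE 0.08; 0.57 in the human-count scaling). Of 15 iron uptake genes 3 rose (20%) and 2 fell (13.3%), both below the 24.1% and 26.3% of all genes. Without culture 1 there were 1 and 4. Among the 2 that fell was ctr4, of a copper transporter (−0.67, SE 0.14, and 0.41 in the human-count scaling). Of 26 MBF-regulated G1/S genes 10 fell (38.5%) and 3 rose (11.5%). Among those that fell was pol1, for a DNA polymerase subunit (−0.67, SE 0.11, and 0.40 in the human-count scaling). The median annotated mRNA length of the 26 genes was 2213 bases, within the third length class (1728 to 2521 bases), where 34.8% fell.

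Few members moved in the remaining lists. Of 11 histone genes hht3 rose (0.32, SE 0.09) and htb1 fell (−0.40, SE 0.11), but htb1 was not called without culture 2 (adjusted p = 0.209). Of 12 tested mRNAs that Mmi1 removes outside meiosis, bgs2 (−0.60, SE 0.10) and ssm4 (−0.89, SE 0.34, adjusted p = 0.0469) fell, the latter not called without culture 2 (adjusted p = 0.335) or culture 3 (0.107). Of 73 meiotically upregulated mug genes 5 rose, led by mug35 (1.36, SE 0.15), and 20 fell (10 without culture 2 and 13 without culture 3, and 2 rose without culture 2), the falls being 27.4% beside 26.3% of all genes. htb1, bgs2 and ssm4 stood above 0 in the human-count scaling (0.70, 0.48 and 0.18). Of 5 tested small nuclear and nucleolar RNAs 0 were called by edgeR and 0 by DESeq2, and snR101, with the lowest p, stood at 0.46 (adjusted p = 0.212). 1 of the 5 was called lower without culture 1, and the library kit selects mRNA.

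Long non-coding and antisense RNAs were mostly too low to test: 728 of 1535 passed the filter. Of these 96 rose (13.2%) and 43 fell (5.91%), both below the 24.1% and 26.3% of all genes, with a median of 0.11. Without culture 2 there were 52 and 9, and by DESeq2 50 and 13. Under the stricter filter, with a minimum count of 50, 244 were tested, 33 rose and 38 fell, and the median was −0.05, so the direction turns with the filter. SPNCRNA.1696, also called nam3, went from 11.5, 15.4 and 8.04 CPM to 35.6, 36.8 and 21.7 CPM without overlap (1.45, SE 0.18); the annotation lays a second non-coding gene, SPNCRNA.532, over it on the same strand. The largest called rises rest on few counts at time point 5, and no fold is given for them. SPNCRNA.911 had 1, 2 and 5 counts in cultures 1, 2 and 3 at time point 5 and 19, 49 and 55 at 20. SPNCRNA.687 had 3, 8 and 5 counts and then 12, 72 and 72; it lies wholly within cph1 on the opposite strand. cph1, chosen after its values were seen, was not called (0.18, adjusted p = 0.165). SPNCRNA.757 had 2, 1 and 0 counts and then 16, 33 and 9, and overlaps the chaperone gene ssc1, which rose (0.83, SE 0.09), by 29 bases on the opposite strand. The strand setting of the counting is not stated, so reads of such pairs cannot be told apart.

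The La family was small and split. sla1, for the La protein that binds the ends of new RNA polymerase III transcripts, went from 305, 251 and 343 CPM to 410, 322 and 400 CPM (0.34, SE 0.08). slr1 went from 284, 174 and 201 CPM to 212, 139 and 171 CPM (−0.34, SE 0.08, adjusted p = 0.00444), lower in each culture while the groups overlapped. pof8, for the LARP7 homologue of telomerase, fell by 0.34 on the log2 scale (SE 0.10), and its call was lost without culture 1 (adjusted p = 0.0963) or culture 3 (0.0823). In the human-count scaling slr1 and pof8 stood at 0.76 and 0.75.

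The step was then compared between WT and the slr1 knockout, which lacks the LARP1 homologue that the series' title ties to such mRNAs. No gene passed for a difference between genotypes (edgeR interaction test, 12 libraries, culture as a block, 0 of 5678 tested). At an unadjusted p under 0.05 there were 761 genes (13.4%), and DESeq2 called 68, 65 of them with the lower step in the knockout. The lowest edgeR adjusted p was 0.155, that of puf1, for a Pumilio family RNA-binding protein, with −0.60 in WT and 0.09 in the knockout (difference 0.69), where the WT value stood at 0.49 in the human-count scaling. By the same test rpl3802 had 1.18 and 0.57 (difference −0.61), rps2302 1.10 and 0.43 (−0.67), rps1902 1.03 and 0.43 (−0.60) and oca8, a cytochrome b5 gene, 1.01 and 0.48 (−0.52, adjusted p = 0.173).

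Ribosomal protein genes had the smaller median step in the knockout, as other lists had, and whether single genes passed depended on the tool. The median step of ribosomal protein genes was 0.96 in WT and 0.55 in the knockout. On a joint scaling of the 12 libraries, it was 0.94, 0.87 and 1.01 within WT cultures 1, 2 and 3. In the knockout cultures it was 0.44, 0.71 and 0.45, so the genotypes did not overlap. Respiratory chain and ATP synthase genes did not overlap either (0.78, 0.70 and 0.64 in WT, 0.36, 0.58 and 0.38 in the knockout). Nor did initiation factors (0.45, 0.53 and 0.63 against 0.34, 0.31 and 0.29), while elongation and TOP-like factors overlapped. The cultures also split unevenly between genotypes in S. pombe counts per fly count. At time point 5 this ratio was 888, 582 and 2321 in WT cultures 1, 2 and 3, and 3315, 620 and 2701 in the knockout. WT cultures 1 and 2 thus stood with knockout culture 2, and the bearing of this split on the genotype difference was not tested. Of the 140 ribosomal protein genes, 109 had an unadjusted edgeR p under 0.05, as had 16 of 34 respiratory genes and 13.4% of all genes. After edgeR's adjustment over all genes 0 passed. DESeq2 called 48 ribosomal protein genes, all with the lower step in the knockout; it gave an adjusted p to 725 of the 5678 genes, 103 of them ribosomal protein genes, so it adjusted over a smaller set. In the knockout by itself 132 of the 140 rose and 1 fell, where 15.2% of all 5462 genes tested there rose and 9.37% fell. Of the 33 heat shock and chaperone genes, 28 also rose in the knockout and 0 fell. Their median step was smaller there too, at 0.43 against 0.67 in WT, and 3 of the 33 had an unadjusted edgeR p under 0.05 for the difference. Among single heat shock genes, ssa1 rose by 1.87 in the knockout against 2.19 in WT and slt1 by 1.46 in both. Their adjusted p for the difference by edgeR was 0.742 and 0.993.

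**Figure D5:**
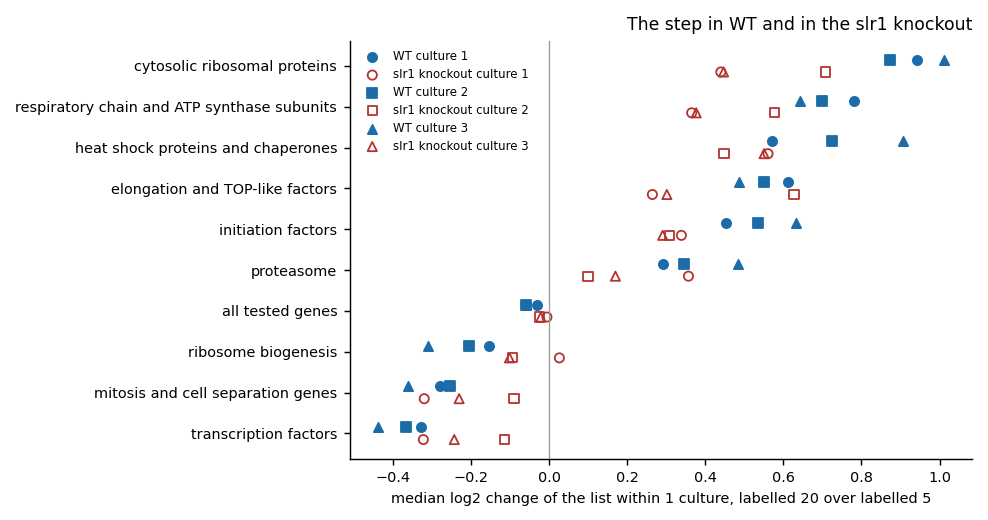
Median log2 change (labelled 20 over labelled 5, joint TMM scaling of 12 libraries) of 9 gene lists and of all tested genes within each culture, WT in filled and slr1 knockout in open symbols. The ribosomal protein list lies between 0.87 and 1.01 in WT and between 0.44 and 0.71 in the knockout, edgeR called 0 genes for the difference and DESeq2 68, and the lists below 0 have medians above 0 in the human-count scaling of WT.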

How the data were processed

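Libraries of 4-thiouracil-labelled RNA were compared at labelled time points 5 and 20. The authors deposited raw read counts per gene, 1 file per library, without normalization; per the submitters' processing notes HTSeq 0.6.1p2, STAR 2.5.2a, R 3.5.2 and Trimmomatic 0.36 were used. Genome build, annotation and strand setting are not stated there. Gene names carry a species letter, and only S. pombe genes (7268) were tested; the HTSeq summary lines were left out of library sizes. Human counts served as an alternative scaling.

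Counts were fitted with edgeR 4.0.16 in R 4.3.3 (TMM, filterByExpr with a minimum count of 10, quasi-likelihood F test, culture as a block, Benjamini-Hochberg adjustment over all tested genes, threshold 0.05). The difference between genotypes was an interaction term over 12 libraries. DESeq2 1.42.0, other scalings, filters and libraries left out were alternatives. The code was tested on simulated data. Of 7268 gene names 6862 matched the RefSeq annotation of ASM294v3, which gave symbols, lengths, exons and promoters. The depth was 1400848 to 5313881 counts per WT library.

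Portions came from the same culture over time, per the labels. Libraries of 1 culture deviated together (r of 0.883, 0.786 and 0.777 for same cultures, −0.641 to −0.036 for others). Deviations were taken from the mean of each time point's libraries, and this centring by itself pushes the values for other cultures below those for same cultures.

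Named genes were the 12 largest called rises and falls among genes that have a symbol, average 10 CPM or more and move 1 way in all cultures, per list the 3 called members that changed most (where none was called, the 2 of lowest p), slr1, and the 5 with the smallest p between genotypes. This rule met 106 genes, some of which are not described. Genes with a heat shock element, and others marked in the text, were chosen after their values were seen. All members and lists were chosen with earlier results of these data known, and 6 genes that did not belong were removed from 3 lists afterwards.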

Additional observations from a re-analysis of the deposited data

How the results depend on the processing

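Among 109 named genes, 106 of them called, 99 were called with each culture left out in turn. DESeq2 ended the calls of hsp3102, pof8 and ssm4 and gave no adjusted p for SPNCRNA.757, RLE size factors ended that of ssm4, and a fit on all 15 labelled WT libraries ended 12. Genes called numbered 1969 to 2505 with 1 culture left out, against 2825, and the lower calls dropped most, from 1474 to 927 without culture 2.

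The replicate block, which pairs libraries by culture, decides the calls: with no replicate block 0 genes were called (819 at an unadjusted p under 0.05, lowest adjusted p 0.231). For the difference between genotypes DESeq2 called 68 genes, with an adjusted p for 725 of 5678, where edgeR called 0 over all 5678 (761 at an unadjusted p under 0.05), and leaving out 1 culture gave 0 to 2, the 2 arising without WT culture 2.

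Scaled to human counts, 5456 genes were called, all of them higher, and these changes became positive: pho84 0.12, hsp3102 0.11, guf1 0.12, snt2 0.17, pof15 0.20, snf5 0.20, eme1 0.20, cbf12 0.22, scr1 0.25, res2 0.24, prm1 0.21, rqh1 0.30, slr1 0.76, pof8 0.75, pol1 0.40, bgs2 0.48, ssm4 0.18, ght5 0.57, htb1 0.70, spc7 0.39, ste11 0.40, map4 0.43, pic1 0.36, klp6 0.48, wee1 0.51, gde1 0.48, nog2 0.38, cwf28 0.54, prp40 0.59, cdc28 0.60, vps1301 0.35, puf1 0.49, ctr4 0.41, hsf1 0.69, rps1401 0.57, rps2202 0.96, rpl1603 0.99, rpc1 0.38, nuc1 0.66, dcp2 0.58 and fur4 0.73. These are estimates over all cultures together, and some of these genes fell per human count in a single culture. Among them were guf1, pho84 and prm1 in culture 3, and cbf12, eme1 and ssm4 in culture 2. Depth limits low genes most: 1664 genes were not tested, 901 of them with 0 counts in the 6 libraries.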
